A study of Mus musculus with 12 samples.

Results

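Presynaptic genes encode the proteins that fill synaptic vesicles with transmitter, hold them at the active zone and fuse them with the membrane when calcium enters the terminal. The 45 genes described here were taken as a named list of synaptotagmins, SNAREs, priming factors, active zone scaffolds, synapsins, SV2 proteins and vesicular transporters, and their levels were not used to choose them. The count tables hold 27179 gene IDs, and all 45 genes were found among them. Messenger RNA was sequenced in 12 libraries from C57BL/6 mice, 3 in each of 4 groups. Cultured hippocampal neurons were infected on day in vitro (DIV) 3 with 1 of 2 viruses, AAV2-scramble-GFP and AAV2-shBrpf1-GFP, for experiments on DIV 14 to 15, and the same viruses were injected into hippocampal CA1 of mice 4 weeks old, with tissue taken at 8 weeks. Every group therefore carries AAV2 and GFP. Brpf1 encodes a chromatin reader that assembles histone acetyltransferase complexes, and the study asked what its knockdown does to neurons and to hippocampal function.

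Several features of the samples limit the groups as models. The stage label gives embryonic day 18 to 19 for the cultures, and the growth protocol gives E14.5. For CA1, the methods of the study place scramble in the left and shBrpf1 in the right hippocampus. Its maze test, however, compares scramble mice with shBrpf1 mice, so the sides used for these libraries are not certain. If the sides were as the methods describe, virus and side cannot be told apart. The tissue was not sorted for GFP, so infected and uninfected cells were measured together, and in such bulk samples fewer cells of a type and less RNA per cell cannot be told apart. The study describes 3 pairs of samples in each experiment and, for the cultures, 3 batches of RNA, and the labels do not tie libraries to cultures or animals, so p-values measure the spread between these libraries, some of which may be technical.

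Depth was similar across groups. The neuron libraries held 18330618 to 30275304 counts and the CA1 libraries 22817655 to 26073578 counts. Levels are given as CPM, counts per 1000000 counts of a library size that was scaled by TMM, a normalisation that sets the typical gene equal between libraries. CPM per kilobase of gene length was used wherever single genes were compared with each other. Brpf1 itself stood at 23.8, 53.6 and 39.2 CPM in scramble neurons and at 27.6, 50.5 and 32.9 CPM in shBrpf1 neurons, with a log2 fold change of -0.06 (SE, the standard error, 0.36). In CA1 it stood at 41.1, 47.1 and 36.6 CPM in scramble and at 28.5, 37.9 and 29.0 CPM in shBrpf1, with a log2 fold change of -0.38 (SE 0.18). Neither difference passed edgeR's quasi-likelihood test (adjusted p = 1.0 in neurons and 0.934 in CA1, Benjamini-Hochberg). The groups overlapped in both experiments, so "shBrpf1" below names the libraries labelled so. One defect concerned the tables themselves. All 972 gene IDs of chromosome 13 were at 0 in all CA1 tables, although 448 of them averaged at least 100 counts in neurons, so Sv2c, the only one of the 45 genes on that chromosome, has no CA1 measurement and CA1 results cover 44 genes.

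Cell type markers were read beside these levels. The neuron samples carry the source label of neural progenitor cells, and summed levels of 10 pan-neuronal genes were 2063 to 4626 CPM there against 218 to 938 CPM for 8 progenitor genes. In CA1 the same sums were 2418 to 3411 and 78.9 to 105 CPM, of which Ccnb1 on chromosome 13 could not add anything. In the cultures 10 astrocyte genes summed to 4889 to 9577 CPM, above the pan-neuronal sum in every neuron library. There 11 oligodendrocyte lineage genes summed to 788.5 to 3646 CPM. Sums of lists are not scaled by gene length and do not give shares of cells. Microglial genes summed to 1.34 to 18.0 CPM in the cultures and to 266 to 548 CPM in CA1, with Cx3cr1 and P2ry12 at or near 0 in cultures. CA1 libraries also differed from each other. Choroid plexus genes summed to 5029, 37.6 and 1203 CPM in CA1 scramble and to 36.4, 3317 and 217 CPM in CA1 shBrpf1. CA1 scramble replicate 3 had the highest sum of 10 thalamic genes, 397 CPM against 81.4 to 198 CPM in the other 5 CA1 libraries, and the lowest sum of 6 CA1 pyramidal neuron genes, 346 CPM against 540 to 724 CPM. Shox2, a thalamic transcription factor gene, was at 9.27 CPM in that library, at 3.36 CPM in CA1 shBrpf1 replicate 3 and at or near 0 in the others.

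The most abundant presynaptic transcripts were those of vesicle and SNARE proteins, and their order differed between cultures and tissue. In scramble neurons the highest levels per kilobase were those of Vamp2, the vesicle SNARE, at 353 ± 174 CPM per kilobase (SD, n = 3), and of Syp, the vesicle membrane protein synaptophysin, at 330 ± 184 CPM per kilobase (n = 3). Snap25, a SNARE of the plasma membrane, followed at 230.0 ± 144 CPM per kilobase (n = 3), with Syt11, a synaptotagmin that does not bind calcium, at 228 ± 87.4 CPM per kilobase (n = 3). The means of these 4 genes lay within their spread between libraries, a spread that ignores which library a level came from. Within libraries the order Vamp2, Syp, Snap25 held in replicates 1, 2 and 3. Vamp2 was at 435, 153 and 470, Syp at 409, 119 and 461 and Snap25 at 358, 74.6 and 258 CPM per kilobase. Syt11, at 191, 165 and 328 CPM per kilobase, changed place. No test was made between genes. In CA1 scramble tissue Snap25 was first at 903 ± 304 CPM per kilobase (n = 3), followed by Syp at 589 ± 110 CPM per kilobase (n = 3) and Slc17a7, the vesicular glutamate transporter VGLUT1, at 508 ± 59.7 CPM per kilobase (n = 3). The ranges of Snap25 and Syp in CA1 scramble did not overlap, at 709, 748 and 1253 against 691, 473 and 604 CPM per kilobase. At the other end stood Unc13c, a Munc13 priming factor known from the cerebellum, at 0.302 ± 0.0719 CPM per kilobase in scramble neurons (n = 3). Syt2, a fast calcium sensor best known from the brainstem and interneurons, was at 0.510 ± 0.374 CPM per kilobase there (n = 3).

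**Figure D1:**
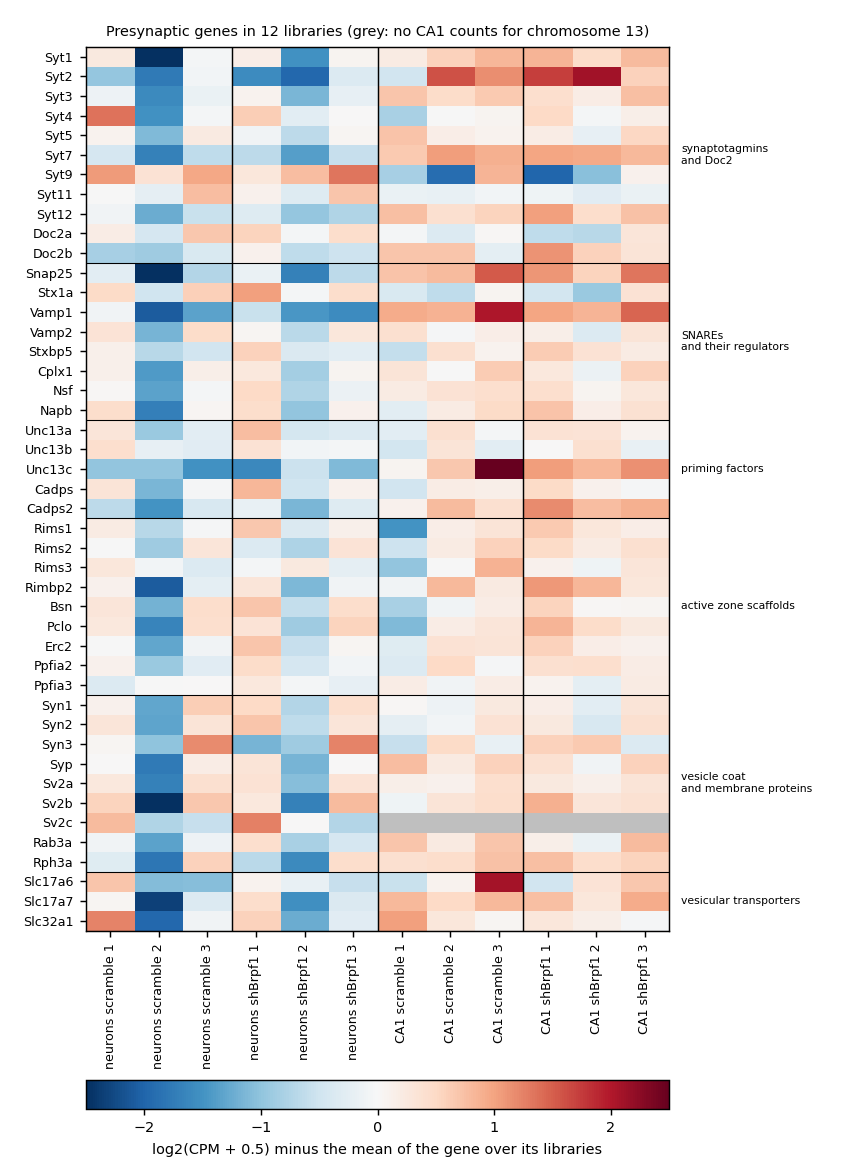
Levels of the 45 presynaptic genes (rows, by role) in 12 libraries (columns), as log2(CPM + 0.5) minus the mean of the gene over its libraries; grey marks Sv2c in CA1. Replicate 2 of both neuron groups is blue over most rows, and Snap25, Vamp1, Syt7, Unc13c and Cadps2 are red over the CA1 columns.

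In cultured neurons, no presynaptic gene differed between the scramble and shBrpf1 groups at the threshold of the study in the fits made here. These fits are not the study's own analysis. The threshold asks for a change of 1 or more in either direction on the log2 scale and an unadjusted p below 0.05. Of 45 genes, 0 were called by edgeR's quasi-likelihood test, DESeq2 or limma-voom, against 0.056% of all 16066 tested genes by edgeR. By edgeR 0 had an unadjusted p under 0.05, against 0.0747% of all tested genes. This fit holds no block for replicate number, so differences between numbers count as spread. The SE of Erc2 was 0.45 here and 0.15 with the block described below. So few genes of any kind reached a p under 0.05 that 0 of 45 says little about the presynaptic genes. The log2 fold changes ran from -0.46 in Syt2 to 0.51 in Erc2, with a median of 0.14 beside -0.01 over all tested genes. Of the 45, 33 lay above 0 and 12 below, where 48.6% of all tested genes lay above 0. In the same fit 9 of 10 pan-neuronal genes lay above 0 (median 0.21). Below 0 lay 9 of 10 astrocyte genes (median -0.23) and 8 of 8 progenitor genes (median -0.30). Lists of neuron types went the same way, with 9 of 10 interneuron genes (median -0.30) and 4 of 6 CA1 pyramidal neuron genes (median -0.29) below 0. Of 11 oligodendrocyte lineage genes, 8 lay below 0 (median -0.19). The part of these lists in the values of the presynaptic genes was not tested. In 0 of the 45 did the 3 shBrpf1 libraries lie apart from the 3 scramble libraries, against 1.61% of all tested genes.

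Values are given by role, with no test between roles. All 5 priming factors had values above 0 (0.09 to 0.42, median 0.30), as did 8 of 9 active zone scaffolds (median 0.28), while 5 of 11 synaptotagmins and Doc2 proteins did (median 0.00). SNAREs and their regulators had a median of 0.17, vesicle coat and membrane proteins 0.16 and vesicular transporters 0.02. None of these values passed the test. Erc2, an active zone scaffold of the ELKS family, stood at 150, 61.3 and 142 CPM in scramble neurons and at 246, 100.5 and 155 CPM in shBrpf1 neurons, for a log2 fold change of 0.51 (SE 0.45). Cadps, the priming factor CAPS1 of dense-core vesicles, stood at 288, 104 and 227 CPM in scramble and at 409, 164 and 250 CPM in shBrpf1, with 0.42 (SE 0.48). In both genes replicate 2 was the lowest library of its group and the groups overlapped. Erc2 was at 0.11 without shBrpf1 replicate 1 and at 0.20 without scramble replicate 2. Both fits keep the other library of that number, which leaves replicate number unbalanced. Within replicate numbers 1, 2 and 3 the log2 ratio of shBrpf1 to scramble was 0.71, 0.71 and 0.13 for Erc2.

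Other genes with the lowest p of their role were as variable. Doc2b, a high-affinity calcium sensor of spontaneous release, was at 53.1, 50.4 and 72.3 CPM in scramble and at 102, 60.5 and 65.4 CPM in shBrpf1 neurons, for a log2 fold change of 0.38 (SE 0.27). Its shBrpf1 mean was carried by replicate 1, the one library above the scramble range, and without it the value was 0.10. Stxbp5, the tomosyn gene, an inhibitor of SNARE assembly, was at 113, 63.7 and 74.0 CPM in scramble and at 153, 80.2 and 86.0 CPM in shBrpf1, with 0.35 (SE 0.35). Without shBrpf1 replicate 1 its value was -0.02 and that of Cadps -0.01. Sv2c, an SV2 vesicle protein found mainly in the basal ganglia, was at 19.0, 6.19 and 7.07 CPM in scramble and at 26.4, 10.9 and 6.29 CPM in shBrpf1, with 0.44 (SE 0.66), and with -0.32 without shBrpf1 replicate 1. Replicate 1 was the highest library in both groups. Slc32a1, the vesicular GABA transporter VGAT, was at 134, 13.97 and 53.1 CPM in scramble and at 84.3, 23.6 and 46.2 CPM in shBrpf1, with -0.38 (SE 0.80). Without scramble replicate 1 its value was 0.65. Fits that leave out 1 library keep the other library of its number, which leaves replicate number unbalanced. Within numbers 1, 2 and 3 the log2 ratios of shBrpf1 to scramble were 0.43, 0.33 and 0.22 for Stxbp5. For Cadps they were 0.50, 0.65 and 0.14. Those of Doc2b (0.93, 0.26, -0.14), Sv2c (0.46, 0.77, -0.16) and Slc32a1 (-0.66, 0.74, -0.20) differed in sign.

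Replicate 2 was the low library of both neuron groups for most presynaptic genes. In scramble neurons 41 of 45 genes had their lowest level in replicate 2, and in shBrpf1 neurons 37 of 45 did, against 33.7% and 33.1% of all tested genes. For 36 genes, or 80.0%, replicate 2 was lowest in both groups, against 24.9% of all tested genes. Syt1, the main calcium sensor of fast release, stood at 932, 128 and 758 CPM in scramble and at 879, 274 and 825 CPM in shBrpf1 neurons. Sv2b, an SV2 vesicle protein, stood at 386, 37.4 and 418 CPM in scramble and at 315, 80.7 and 457 CPM in shBrpf1. In both genes replicate 2 lay far below the other libraries of its group, whichever virus was used.

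Not every gene followed that order. Ppfia3, a liprin-alpha scaffold of the active zone, was at 153, 194 and 197 CPM in scramble and at 233, 189 and 169 CPM in shBrpf1 neurons, so replicate 2 was lowest in neither group. Syt9, Vamp1, Unc13b, Unc13c, Rims3, Syn3, Sv2c and Slc17a6 were the other 8 genes in which replicate 2 was not the lowest in both groups. Syn3, a synapsin expressed early in neurons, had its highest levels in replicate 3, at 92.8 and 96.6 CPM against 18.0 to 42.2 CPM in the other 4 libraries.

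Marker lists moved with replicate number too. Without Sv2c, the presynaptic genes summed to 13260, 4687 and 13380 CPM in scramble and to 15120, 6593 and 12990 CPM in shBrpf1 neurons. Pan-neuronal genes, which share no gene with them, summed to 3540, 2063 and 3908 CPM in scramble and to 4626, 2835 and 3741 CPM in shBrpf1, again lowest in replicate 2. Interneuron genes summed to 1156, 127 and 467 CPM in scramble and to 592, 175 and 424 CPM in shBrpf1. Astrocyte genes summed to 7689, 9577 and 7104 CPM in scramble and to 4889, 7811 and 7401 CPM in shBrpf1, highest in replicate 2. Gfap made that order, at 2669, 3560 and 74.3 CPM in scramble, and without it the sums were 5020, 6016 and 7030 CPM in scramble and 3508, 5225 and 7285 CPM in shBrpf1, highest in replicate 3. Their part in the levels of the presynaptic genes was not tested.

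**Figure D2:**
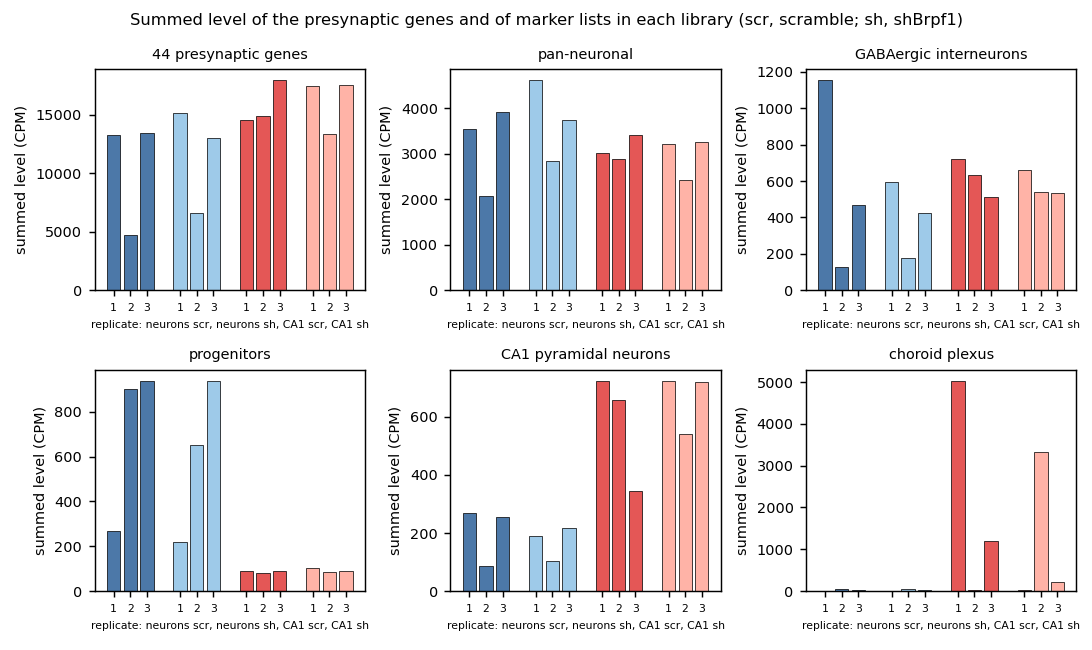
Summed level in CPM (bars, axes from 0) of 44 presynaptic genes and of 5 marker lists in each of the 12 libraries, 3 per group. Replicate 2 of both neuron groups is lowest for the presynaptic, pan-neuronal and interneuron genes, and choroid plexus genes reach 5029 CPM in CA1 scramble replicate 1.

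Libraries of the same number deviated from their group means together in the cultures, so the comparison was also made within replicate numbers. The median log2 ratio of shBrpf1 to scramble over the 45 genes was 0.13 for number 1, 0.52 for number 2 and -0.01 for number 3, and 27, 42 and 22 genes lay above 0. The high ratios belonged to number 2, the pair with the lowest levels. In 11 genes all 3 ratios were above 0 and in 1 gene, Syt2, all were below 0, against 14.2% and 14.4% of all tested genes. With replicate number as a block, 0 genes were called at the threshold of the study, against 0.317% of all tested genes, and 6 had an unadjusted p under 0.05, all higher, against 3.14% of all tested genes. In this fit the median over the 45 was 0.26, and 37 lay above 0 against 50.8% of all tested genes. The 6 genes with an unadjusted p under 0.05 included Rims1 (log2 fold change 0.34, SE 0.10), Stxbp5 (0.34, 0.10) and Ppfia2 (0.37, 0.11). The rest of the 6 were Cadps (0.44, 0.13), Erc2 (0.52, 0.15) and Cadps2 (0.32, 0.12). Rims1, Ppfia2 and Erc2 build the active zone, and Cadps, Cadps2 and Stxbp5 act on priming and SNARE assembly. None passed when p was adjusted over all tested genes (edgeR quasi-likelihood test with the block, Benjamini-Hochberg adjusted p = 0.847 for each of the 6). In the same fit 9 of 10 pan-neuronal genes lay above 0 (median 0.29). Below 0 lay 9 of 10 astrocyte genes (median -0.21) and 7 of 8 progenitor genes (median -0.42). So did 9 of 11 oligodendrocyte lineage genes (median -0.79) and 8 of 10 interneuron genes (median -0.13). CA1 pyramidal neuron genes were split, with 3 of 6 below 0 (median -0.13). The part of these lists in the values of the presynaptic genes was not tested.

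The median over the 45 genes in the fit without a block depended on single libraries. Leaving out 1 library keeps the other library of its number, so replicate number was unbalanced in these fits. It was 0.14 with all 6 libraries, -0.19 without scramble replicate 2 and -0.07 without shBrpf1 replicate 1. Without scramble replicate 1 it was 0.41, without scramble replicate 3 it was 0.32 and without shBrpf1 replicate 2 it was 0.45. Without both libraries of number 2 it was 0.06, an alternative added after seeing the data.

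In CA1 tissue, no presynaptic gene differed between shBrpf1 and scramble at the same threshold in the fits made here. Of 44 genes, 0 were called by edgeR's quasi-likelihood test, DESeq2 or limma-voom, against 0.468% of all 16022 tested genes by edgeR, and 1 had an unadjusted p under 0.05, against 1.15%. The log2 fold changes ran from -0.82 in Unc13c to 0.66 in Syt2, with a median of 0.06 beside 0.01 over all tested genes. Unc13c stood at 6.31, 9.90 and 51.1 CPM in CA1 scramble and at 12.8, 11.03 and 13.9 CPM in CA1 shBrpf1. Scramble replicate 3, where thalamic genes were high, lay above the shBrpf1 range, and scramble replicates 1 and 2 lay below it. The part of thalamic RNA in the Unc13c level was not tested. Of the 44, 26 lay above 0 and 18 below, where 50.8% of all tested genes lay above 0. In 0 of 44 genes did the groups lie apart, against 5.35% of all tested genes. The median was -0.01 without shBrpf1 replicate 1 and 0.23 without scramble replicate 3.

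Cadps2, the priming factor CAPS2, had the lowest p. It stood at 51.5, 83.0 and 63.1 CPM in CA1 scramble and at 109, 81.6 and 88.2 CPM in CA1 shBrpf1, a log2 fold change of 0.51 (SE 0.22). The lowest shBrpf1 library lay below the highest scramble library, and the difference did not pass after adjustment over all tested genes (edgeR quasi-likelihood test, Benjamini-Hochberg adjusted p = 0.934). Pclo, the giant active zone scaffold piccolo, stood at 98.4, 240 and 262 CPM in scramble and at 382, 290 and 251 CPM in shBrpf1, with 0.63 (SE 0.36), and with 0.31 without scramble replicate 1. CA1 scramble replicate 1, the library with the most choroid plexus RNA, was the low one for Pclo, for Rims1 (31.6 CPM against 99.7 to 140 CPM in the other 5 libraries) and for 26 of the 44 genes in its group, where 38.9% of all tested genes were lowest. In CA1 shBrpf1, replicate 2, with choroid plexus genes at 3317 CPM, was the lowest of its group for 28 of the 44 genes. There 34.0% of all tested genes were lowest. The part of choroid plexus RNA in these levels was not tested.

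The remaining roles gave no gene past the threshold in CA1. Syt4, a synaptotagmin of dense-core vesicles, stood at 52.7, 91.3 and 96.8 CPM in scramble and at 131, 88.7 and 102 CPM in shBrpf1, with a log2 fold change of 0.43 (SE 0.26). Stxbp5 stood at 67.9, 137 and 110.0 CPM in scramble and at 162, 133 and 120.0 CPM in shBrpf1, with 0.41 (SE 0.27). In both genes scramble replicate 1 was the lowest library and the groups overlapped. Sv2b stood at 242, 327 and 354 CPM in scramble and at 489, 323 and 343 CPM in shBrpf1, with 0.34 (SE 0.23). Slc32a1 stood at 115, 68.6 and 57.8 CPM in scramble and at 68.7, 62.0 and 54.8 CPM in shBrpf1, with -0.36 (SE 0.25). All 3 vesicular transporters had values below 0 in CA1, and none of the 3 had an unadjusted p under 0.05. Slc17a6 stood at 9.76, 15.4 and 63.1 CPM in scramble and at 10.3, 18.7 and 23.55 CPM in shBrpf1. Only scramble replicate 3 lay above its shBrpf1 range.

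The knockdown difference itself was then compared between the experiments. As an interaction over all 12 libraries, 0 of 44 genes had an adjusted p under 0.05 by edgeR's quasi-likelihood test, DESeq2 or limma-voom, where 0.0% of 16668 tested genes were called by edgeR. At an unadjusted p under 0.05 there were 0 of the 44 genes and 0.33% of all tested genes. The median of the 44 was -0.08, with 17 genes above 0 against 51.9% of all tested genes.

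**Figure D3:**
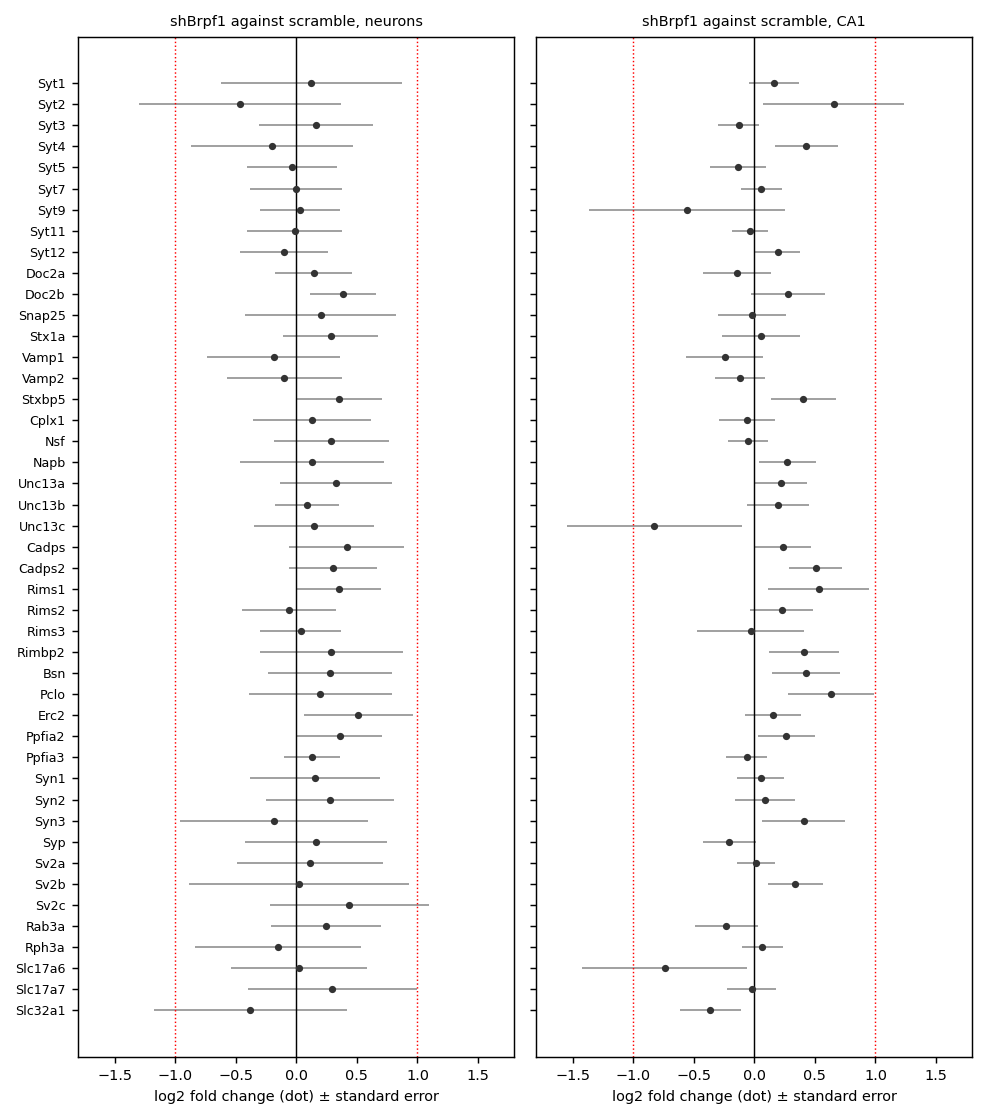
Log2 fold change of shBrpf1 against scramble (dots) with its standard error (lines) for each presynaptic gene, in neurons on the left (45 genes) and in CA1 on the right (44 genes, Sv2c without a value); dotted lines mark -1 and 1. The values lie between -0.46 and 0.51 in neurons and between -0.82 and 0.66 in CA1, and no gene passed the threshold of the study in these fits.

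CA1 tissue and cultured neurons were compared next, within the scramble libraries and again within the shBrpf1 libraries. The 2 comparisons share no library. Same-numbered neuron libraries deviated together, with replicate 2 low in both neuron groups, so the second comparison is not an independent repeat. Age, culture, cell makeup, dissection and sequencing all differ between the 2 kinds of sample and cannot be told apart. Of 110 chromosome Y IDs, 10 to 12 were detected in each neuron library and 0 in CA1. Whether the sex of the animals or a gap in the tables lies behind this was not tested. Here a call needed a change of 1 or more on the log2 scale and a Benjamini-Hochberg adjusted p below 0.05. In scramble libraries 7 of 44 presynaptic genes were higher in CA1 and 0 were lower, against 7.37% of all 15956 tested genes higher and 8.08% lower. In shBrpf1 libraries 8 were higher and 0 lower, against 8.28% of 15978 tested genes higher and 6.79% lower. The same 7 genes, Snap25, Vamp1, Syt7, Syt12, Doc2b, Unc13c and Cadps2, were called higher in both, against 5.84% of the genes tested in both. Syt2 was called in the shBrpf1 libraries alone. The files give no positions, and in the GENCODE M21 annotation of GRCm38 these protein-coding genes are Snap25 on chromosome 2 (136713453 to 136782428, + strand), Vamp1 on chromosome 6 (125215551 to 125245964, + strand), Cadps2 on chromosome 6 (23262773 to 23839421, - strand), Unc13c on chromosome 9 (73479422 to 73968966, - strand), Doc2b on chromosome 11 (75768966 to 75796049, - strand), Syt7 on chromosome 19 (10389090 to 10453180, + strand) and Syt12 on chromosome 19 (4445908 to 4477447, - strand). Over all 44 genes the median log2 fold change was 0.30 in scramble and 0.37 in shBrpf1 libraries, beside -0.05 and -0.02 over all tested genes.

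Among 8 SNAREs and their regulators 2 were called higher in CA1 in both comparisons, Snap25 and Vamp1, against 7.37% and 8.28% of all tested genes. Snap25 stood at 758, 158 and 546 CPM in scramble neurons and at 1502, 1585 and 2656 CPM in CA1 scramble, a log2 fold change of 1.95 (SE 0.55, edgeR adjusted p = 0.0428). In shBrpf1 it stood at 816, 281 and 580 CPM in neurons and at 1971, 1338 and 2324 CPM in CA1, with 1.75 (SE 0.43, edgeR adjusted p = 0.0278). Every CA1 library lay above every neuron library. Vamp1, the synaptobrevin that prevails in brainstem and spinal cord and in some fast-spiking neurons, stood at 54.2, 13.3 and 22.7 CPM in scramble neurons and at 111, 107 and 236 CPM in CA1 scramble, with 2.30 (SE 0.54, edgeR adjusted p = 0.0237). In shBrpf1 it stood at 39.2, 20.8 and 19.1 CPM in neurons and at 116, 104.5 and 160 CPM in CA1, with 2.27 (SE 0.32, edgeR adjusted p = 0.00408). CA1 scramble replicate 3, where thalamic genes were high, had the highest Vamp1 and Snap25, and without it the values were 1.87 and 1.68, neither of them called. The part of thalamic RNA in these levels was not tested. Vamp2, Stx1a, the SNARE partner syntaxin 1A, Nsf and Napb, which take SNARE complexes apart, Cplx1, the fusion clamp complexin 1, and Stxbp5 were not called in either comparison, with values between -0.78 and 0.64.

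Synaptotagmins and Doc2 proteins include the calcium sensors of release and members that do not bind calcium. Of 11 such genes, 3 were higher in scramble and 4 in shBrpf1 libraries, against the 7.37% and 8.28% of all tested genes called higher. Syt7, the slow, high-affinity sensor of asynchronous release and facilitation, stood at 187, 77.7 and 161 CPM in scramble neurons and at 397, 520 and 464 CPM in CA1 scramble, a log2 fold change of 1.67 (SE 0.35, edgeR adjusted p = 0.0141). In shBrpf1 it stood at 159, 96.8 and 169 CPM in neurons and at 498, 486 and 443 CPM in CA1, with 1.75 (SE 0.27, edgeR adjusted p = 0.00554). The CA1 libraries lay within a narrow range, and the lowest was above the highest neuron library by more than the spread within either group. Syt12, a synaptotagmin without calcium-binding residues, stood at 18.9, 8.20 and 13.6 CPM in scramble neurons and at 34.3, 26.7 and 29.9 CPM in CA1 scramble, with 1.14 (SE 0.31, edgeR adjusted p = 0.0392). Its value in shBrpf1 libraries was 1.45 (SE 0.25, edgeR adjusted p = 0.00888). Doc2b stood at 153, 153 and 79.3 CPM in CA1 scramble and at 206, 140 and 117 CPM in CA1 shBrpf1, above all neuron libraries of the same virus given earlier, with 1.11 (SE 0.31) in scramble and 1.03 (SE 0.30) in shBrpf1 libraries. Its lowest CA1 level was that of scramble replicate 3, the library with the lowest sum of CA1 pyramidal neuron genes. A link between these levels was not tested.

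Other genes of this group lay on both sides of 0. Syt2 stood at 1.45, 0.616 and 3.11 CPM in scramble neurons and at 2.21, 10.9 and 7.95 CPM in CA1 scramble, with 2.02 (SE 0.75, edgeR adjusted p = 0.0989) and overlapping groups. In shBrpf1 it stood at 0.774, 0.480 and 2.502 CPM in neurons and at 12.04, 15.8 and 5.18 CPM in CA1, with 3.17 (SE 0.71, edgeR adjusted p = 0.0204). Syt9, a fast sensor of striatal and limbic synapses, had the lowest value of all 44 genes, -1.10 in scramble and -1.66 in shBrpf1 libraries, and was not called in either (edgeR adjusted p = 0.279 and 0.0811). It stood at 13.2, 18.9 and 28.1 CPM in shBrpf1 neurons and at 2.36, 4.99 and 11.73 CPM in CA1 shBrpf1, groups that did not overlap. Syt1, Syt3, Syt4, Syt5, Syt11 and the calcium sensor Doc2a were not called, with values from -0.62 in Doc2a to 1.09 in Syt3.

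Among 5 priming factors 2 were higher in CA1 in both comparisons, against 7.37% and 8.28% of all tested genes. Unc13c stood at 2.79, 2.76 and 1.77 CPM in scramble neurons and at 6.31, 9.90 and 51.1 CPM in CA1 scramble, a log2 fold change of 3.15 (SE 0.77, edgeR adjusted p = 0.0268). CA1 scramble replicate 3 alone reached 51.1 CPM, and without it the log2 fold change was 1.74 and was not called (edgeR adjusted p = 0.0979). In shBrpf1 Unc13c stood at 1.62, 3.97 and 2.502 CPM in neurons and at 12.8, 11.03 and 13.9 CPM in CA1, a narrow range, with 2.22 (SE 0.39, edgeR adjusted p = 0.00869). Cadps2 stood at 30.2, 16.5 and 35.8 CPM in scramble neurons, below its 3 CA1 scramble libraries, with 1.24 (SE 0.32, edgeR adjusted p = 0.0316), and at 42.0, 21.3 and 38.1 CPM in shBrpf1 neurons, with 1.47 (SE 0.28, edgeR adjusted p = 0.0115). Unc13a and Unc13b, the Munc13 genes of forebrain terminals, and Cadps were not called, with values between -0.13 and 0.25.

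Active zone scaffolds, vesicle proteins and transporters gave no call in either comparison. Among the RIM genes Rims1, Rims2 and Rims3, the proteins of Rims1 and Rims2 tether vesicles and channels. Bsn and Pclo span the active zone, and the liprins Ppfia2 and Ppfia3 help to assemble it. The 9 scaffolds, with Rimbp2 and Erc2, had medians of 0.18 in scramble and 0.17 in shBrpf1 libraries. Rimbp2, which links RIM proteins to calcium channels, had the highest of these values, 0.83 (SE 0.50) and 0.97 (SE 0.38). The 8 vesicle coat and membrane genes with a value (Syn1, Syn2, Syn3, Syp, Sv2a, Sv2b, Rab3a and its effector Rph3a) had medians of 0.21 and 0.33. Rab3a, the small GTPase of vesicles, had 0.95 (SE 0.36) in scramble and 0.49 (SE 0.38) in shBrpf1 libraries. Slc17a7 stood at 945, 180 and 714 CPM in scramble neurons and at 1590, 1292 and 1600 CPM in CA1 scramble, with 1.26 (SE 0.53, edgeR adjusted p = 0.141), and its groups did not overlap there. In shBrpf1 neurons it stood at 1228, 313 and 707 CPM and in CA1 at 1537, 1107 and 1730 CPM, groups that overlapped, with 0.97 (SE 0.47, edgeR adjusted p = 0.201). Slc17a6, the glutamate transporter VGLUT2 that prevails in thalamus and brainstem, was at 9.76, 15.4 and 63.1 CPM in CA1 scramble, again highest in replicate 3. The part of thalamic RNA in this level was not tested.

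Groups that did not overlap were more common than calls. In scramble libraries 12 of 44 presynaptic genes, or 27.3%, had all CA1 libraries on one side of all neuron libraries, all higher in CA1, against 39.3% of all tested genes. In shBrpf1 libraries 10 were higher and 1, Syt9, was lower, 25.0% in all, against 39.6% of all tested genes. The 2 comparisons gave the same sign in 37 of 44 genes, and 86.2% of all tested genes did so. The log2 fold changes correlated at r = 0.908 over the 44 genes and at 0.948 over all genes tested in both, a description across genes whose points share a source of cells within each kind of sample.

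**Figure D4:**
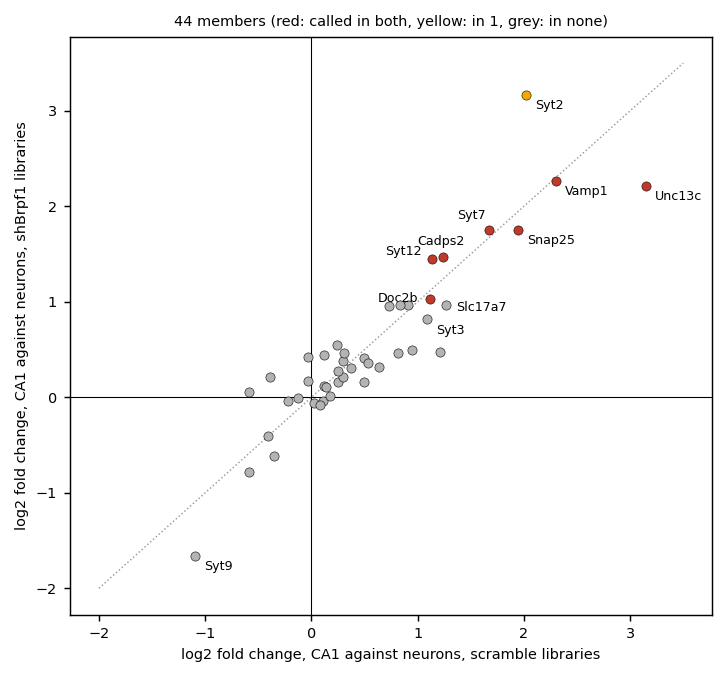
Log2 fold change of CA1 against neurons in scramble libraries (horizontal) and in shBrpf1 libraries (vertical), 1 point for each of 44 presynaptic genes; the dotted line marks equal values. Red points are the 7 genes called higher in both, yellow is Syt2, and Syt9 is lowest at -1.10 and -1.66.

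**Figure D5:**
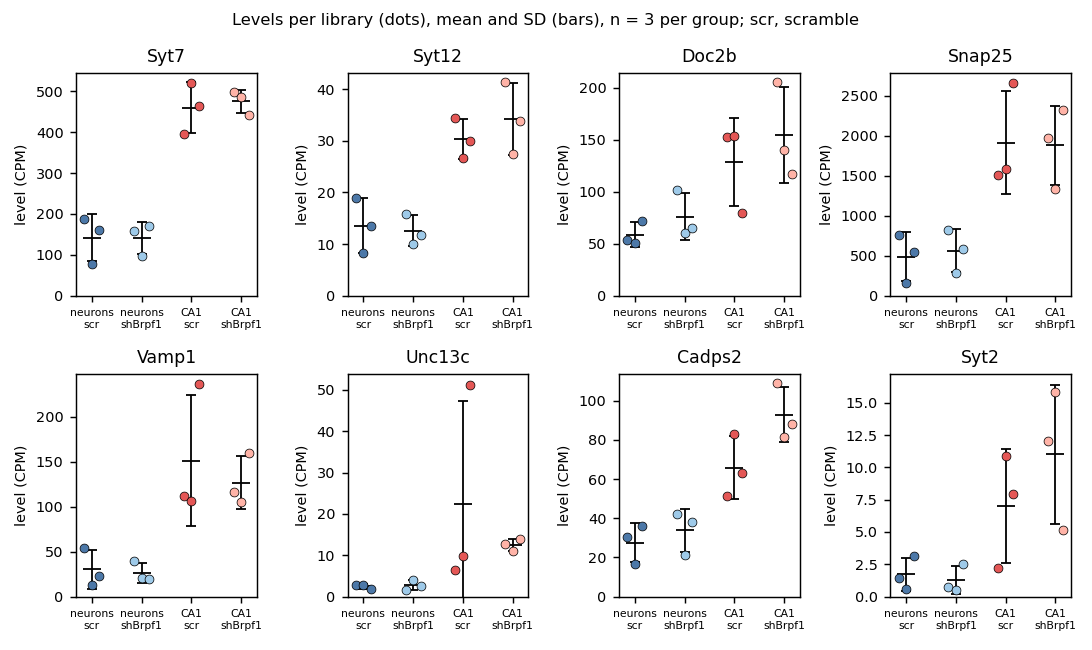
Level in CPM (vertical, from 0) of the 8 genes called higher in CA1 than in neurons in at least 1 comparison, for each library (dots) with mean and SD (bars, n = 3 per group). Syt7 is at 397 to 520 CPM in all CA1 libraries and at 77.7 to 187 CPM in all neuron libraries, and the high CA1 scramble dot of Vamp1, Unc13c and Snap25 is replicate 3.

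These calls were sensitive to single libraries. Without scramble replicate 1, 2 or 3 of the neurons, 4, 4 and 2 of the 44 genes were called higher in scramble, and without replicate 1, 2 or 3 of CA1 scramble, 2, 2 and 1 were. Without replicate 1, 2 or 3 of CA1 shBrpf1, 3, 5 and 3 were called higher in shBrpf1, and leaving out a shBrpf1 neuron library gave 7 or 8. Through these fits the log2 fold change of Syt7 in scramble stayed between 1.38 and 1.95 and that of Snap25 between 1.53 and 2.44.

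Shares within gene families do not depend on how libraries are scaled. Vamp2 made up 96.2, 97.3 and 98.5% of Vamp1 and Vamp2 levels per kilobase in scramble neurons and 92.7, 90.8 and 83.7% in CA1 scramble. The means were 97.3 ± 1.15% (SD, n = 3) and 89.1 ± 4.75% (n = 3), a difference of -8.24 percentage points with no overlap. A two-sided exact permutation test gave p = 0.1, the smallest that 3 against 3 libraries allow, and shBrpf1 libraries gave 97.4 ± 1.03% and 89.8 ± 1.12% with the same p of 0.1 in the exact test. Syt1 made up 34.6, 10.6 and 25.3% of the 9 synaptotagmins in scramble neurons and 33.5, 39.7 and 43.2% in CA1 scramble (exact permutation test, p = 0.2). Neuron replicate 2 gave the lowest share, and Syt11 made up 66.3% there against 34.2 and 52.6% in replicates 1 and 3. In shBrpf1 libraries the Syt1 share was 34.4, 19.3 and 27.9% in neurons and 43.2, 40.2 and 42.1% in CA1 (exact permutation test, p = 0.1).

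The other families had shares in cultures and tissue whose ranges overlapped. Slc17a7 made up 98.4 ± 0.905% (SD, n = 3) of both glutamate transporters in scramble neurons and 98.7 ± 1.17% (n = 3) in CA1. Unc13a made up 83.9 ± 4.09% of the Munc13 genes in scramble neurons and 83.7 ± 4.64% in CA1 (n = 3 each). Syn1 made up 58.0 ± 3.72% and 58.0 ± 3.45% of the synapsins, which coat vesicles and hold them in reserve (n = 3 each). Sv2b made up 31.7 ± 11.1% of Sv2a and Sv2b in scramble neurons and 33.5 ± 3.66% in CA1 (n = 3 each), with Sv2c left out because it has no CA1 measurement. The exact permutation p of these 4 shares was 0.8 to 1.0. The 6 families were tested without adjustment, since 0.1 is the smallest p any of them could reach. Between scramble and shBrpf1, in neurons or in CA1, the exact permutation p of the shares was 0.3 to 1.0.

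Promoter sequences are shown for 3 of the genes called higher in CA1 and, for contrast, for Syn1, a widely used neuronal promoter that was not called. Sequences come from RefSeq on GRCm38.p6, 250 bases before to 50 bases after the annotated start, and 35 of the 45 genes matched the table. Capitals mark matches on either strand to the GC box GGGCGG, the E-box CACGTG, the cyclic AMP response element TGACGTCA and TTCAGCACC, a half-site of the neuron-restrictive silencer element RE1. The windows are chr6:125215331-125215630 (+) for Vamp1, chr6:23839372-23839671 (-) for Cadps2, chr9:73968988-73969287 (-) for Unc13c and chrX:20920869-20921168 (-) for Syn1.
Vamp1: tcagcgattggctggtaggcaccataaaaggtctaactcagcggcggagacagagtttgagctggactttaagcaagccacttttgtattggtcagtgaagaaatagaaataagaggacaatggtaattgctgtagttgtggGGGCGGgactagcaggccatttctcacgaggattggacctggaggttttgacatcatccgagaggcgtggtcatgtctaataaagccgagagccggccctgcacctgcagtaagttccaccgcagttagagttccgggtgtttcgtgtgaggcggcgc
Cadps2: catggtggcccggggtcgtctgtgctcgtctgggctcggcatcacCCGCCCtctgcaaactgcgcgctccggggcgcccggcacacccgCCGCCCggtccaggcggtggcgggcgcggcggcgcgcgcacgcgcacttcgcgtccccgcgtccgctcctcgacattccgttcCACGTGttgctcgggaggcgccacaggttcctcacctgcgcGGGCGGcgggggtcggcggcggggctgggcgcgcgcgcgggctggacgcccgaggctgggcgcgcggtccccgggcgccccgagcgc
Unc13c: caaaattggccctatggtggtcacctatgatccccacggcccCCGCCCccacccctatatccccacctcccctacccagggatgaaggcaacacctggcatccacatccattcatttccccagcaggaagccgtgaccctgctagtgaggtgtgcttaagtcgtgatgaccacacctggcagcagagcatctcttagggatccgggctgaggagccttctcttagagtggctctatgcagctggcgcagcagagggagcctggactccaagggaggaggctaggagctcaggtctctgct
Syn1: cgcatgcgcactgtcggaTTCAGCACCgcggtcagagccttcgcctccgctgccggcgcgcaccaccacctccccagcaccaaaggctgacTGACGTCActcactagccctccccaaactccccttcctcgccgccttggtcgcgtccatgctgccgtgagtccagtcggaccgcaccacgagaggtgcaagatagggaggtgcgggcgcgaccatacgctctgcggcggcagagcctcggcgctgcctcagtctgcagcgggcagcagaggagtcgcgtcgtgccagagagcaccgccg

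A GC box stood in the windows of Vamp1 and Unc13c once each and in that of Cadps2 3 times, and in none of Syn1. It was found in 27 of the 35 presynaptic promoters, or 77.1%, and in 38.2% of all 27025 genes with a promoter in the table. The half-site TTCAGCACC stood in 3 of the 35, Syn1, Unc13a and Ppfia3, against 0.433% of all genes. The response element TGACGTCA stood in Syn1 alone of the 35, against 2.03% of all genes, and CACGTG in Cadps2, Nsf, Sv2b and Unc13b, against 8.09%. TATAAA stood only in Sv2b of the 35, against 15.7%. A match is a string of letters and says nothing of binding.

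A list of 56 other presynaptic genes was read beside the 45. In neurons 0 of its 53 tested genes were called by edgeR's quasi-likelihood test and 0 had an unadjusted p under 0.05. In the blocked fit 5 of the 53 had an unadjusted p under 0.05, all higher, against 3.14% of all tested genes, and these were Lin7a, Stxbp5l, Amph, Erc1 and Rab3d. In CA1 0 of 49 were called and 2, Rims4 and Rab27b, had an unadjusted p under 0.05, both higher, against 1.15% of all tested genes in either direction. Between CA1 and scramble neurons 4 of 49 were higher, Synpr, Bin1, Napa and Lin7b, and 3 were lower, Rims4, Erc1 and Cask, against 7.37% and 8.08% of all tested genes. In shBrpf1 libraries 4 of 49 were higher, Syt13, Syt15, Rab27b and Napa, and 4 were lower, Erc1, Cask, Lin7a and Rab3d, against 8.28% and 6.79%. Napa, the alpha-SNAP partner of Nsf, stood at 142, 96.1 and 129 CPM in scramble neurons and at 350, 276 and 329 CPM in CA1 scramble, with a log2 fold change of 1.35 (SE 0.25, edgeR adjusted p = 0.00889). Erc1, the paralogue of Erc2 that many tissues express, stood at 185, 139 and 318 CPM and at 46.2, 68.5 and 62.1 CPM, with -1.88 (SE 0.34, edgeR adjusted p = 0.00824). Napa, Erc1 and Cask were called in the same direction in shBrpf1 libraries. The 5 genes Cplx2, Rab3c, Amph, Scamp1 and Sncb of this list lie on chromosome 13 and have no CA1 value.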

How the data were processed

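Per the methods of the study, total RNA was extracted and its mRNA sequenced in paired-end mode, adapters and low-quality fragments were removed, reads were aligned with STAR and known genes were counted with StringTie. The submitters' processing notes list FastQC, StringTie, DESeq2 and the build mm9, without versions, while the methods name a later mouse genome release. Gene positions were therefore taken from GENCODE M21 and promoters from RefSeq, both on GRCm38, for description alone. Strand and multi-mapping settings are not given in the sources used here, so reads of overlapping or antisense genes and of close paralogues could not be told apart. The deposited tables hold raw counts, made by the authors with no normalization, for 27179 gene IDs, with a gene length for each ID that was used for levels per kilobase. A RefSeq gene table (GRCm38.p6) named 25275 IDs, and the 1904 others, with 2.46% of counts, were kept under their numbers.

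Genes that reached 10 counts in 3 or more libraries of a comparison were tested with edgeR 4.0.16 (TMM, robust quasi-likelihood fit, R 4.3.3) within the groups compared, and p was adjusted by Benjamini-Hochberg over all tested genes. Knockdown comparisons used the study's threshold, and comparisons between CA1 and neurons also needed the adjusted p. The standard error is the log2 fold change divided by the square root of F. Chromosome 13 IDs were left out of fits and library sizes that span both experiments, a departure from the planned design made after seeing that CA1 held no counts for them. Scripts were tested on simulated data. The genes named are the lowest p of each role in each knockdown comparison, up to 2 called genes of each role between CA1 and neurons with the largest fold change, and the genes of 6 family shares. Other genes, such as Doc2b, Syt2, Syt9, Rimbp2, Rab3a, Ppfia3, Syn3 and the 6 of the blocked fit, were chosen after their values were seen. The 45 genes and all lists were chosen with earlier results of these data known.

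Same-numbered libraries of the neuron groups, numbered in the labels, had departures from the group means that correlated at 0.576, 0.882 and 0.841 over genes, so the numbers were taken as pairs. Those of CA1 correlated at -0.346, 0.193 and 0.347 and were not. The alternatives were DESeq2 1.42.0, limma-voom (limma 3.58.1), DESeq2 size factors, no filter, a filter of 50 counts, the replicate block, a joint fit of 12 libraries and leaving out each library. Between replicates the chi-square per degree of freedom was 43.0 to 269, so no 2 libraries were 1 library deposited as 2.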

Additional observations from a re-analysis of the deposited data

How the results depend on the processing

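With replicate number as a block, 4 genes rather than 7 were called higher in CA1 than in neurons in the scramble libraries, since Doc2b (adjusted p = 0.11), Unc13c (0.0837) and Cadps2 (0.0731) lost their calls in edgeR, at log2 fold changes of 1.07, 2.49 and 1.27 in place of 1.11, 3.15 and 1.24. The median over the 44 genes was 0.54 in place of 0.30. Numbers pair no samples across these experiments. In the shBrpf1 libraries the block called 1 gene lower, Syt9, as did DESeq2 (1) and limma-voom (1). With chromosome 13 IDs kept, 1 gene was called lower in CA1 in each comparison, Sv2c, which has no counts there by the defect of the tables. Limma-voom gave Unc13c 2.59 in scramble, not called (adjusted p = 0.0959). Over all tested genes the block gave 51 calls in place of 9 in the neuron knockdown comparison. Of the other presynaptic genes, 7 in place of 4 were called higher in CA1 in shBrpf1 libraries. It changed no other count of calls among the 45 by over 1.5 times.

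Leaving out 1 library at a time gave 1 to 4 genes called higher and 0 to 1 called lower in scramble, and 3 to 8 higher and 0 to 1 lower in shBrpf1. In the same fits of the neuron knockdown comparison Stxbp5 ran from -0.02 to 0.65, Cadps from -0.01 to 0.75, Sv2c from -0.32 to 1.16 and Slc32a1 from -0.96 to 0.65. These fits hold no block, and leaving out 1 library unbalances replicate number. Without both neuron libraries of number 1, added after seeing the data, Slc32a1 was at 0.08. The differences in family share ran from -0.123 to 0.976 percentage points for Slc17a7, from -4.02 to 5.78 for Sv2b of 3 genes, from -2.48 to 2.53 for Unc13a and from -2.02 to 1.85 for Syn1. The share of 3 genes holds Sv2c at 0 in CA1 by the defect of the tables. Its range is therefore not that of the share of Sv2a and Sv2b given earlier. Unc13a gave 0.678 in shBrpf1 libraries, and Syn1 gave 0.558 there and 0.229 from raw counts. The causes were not tested. With 3 libraries a group, exact tests could not go below 0.1.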
